A study of Mus musculus with 3 samples.

Results

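The integrin and laminin chain genes were followed on 3 mouse arrays of 2 colours, in developing T cells and in the stromal cells that carry them, with and without vitamin C. The members were all probes that are not controls and whose gene name in the files is that of an integrin alpha or beta chain or of a laminin alpha, beta or gamma chain. The rule gave 80 of 41174 probes, or 98 of 43379 spots per array, for 37 of 27718 genes. Of these, 61 probes stood for 27 integrin genes and 19 probes for 10 laminin genes. Itgbl1 and Itgb2l are integrin-like genes whose names match the spelling, and Lamb1, listed in the files as Lamb1-1, is left out by it and is given with the pathway genes.

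Integrins are receptors of the cell surface made of 1 alpha and 1 beta chain, and the pair decides the ligand. They hold blood cells to stroma, to endothelium and to each other, and switch between resting and active forms through talins and kindlins that bind the tail of the beta chain. Laminins are cross-shaped proteins of basement membranes built from an alpha, a beta and a gamma chain, and several integrins bind them. Integrins with alpha4 or beta1 chains are known for holding blood progenitors in marrow.

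The T lineage cells came from bone marrow of C57BL/6 mice. They were grown with Flt3L and IL7 on OP9-DL1, stroma derived from marrow and made to display Dll1, a Notch ligand under which progenitors enter the T lineage. Phospho-ascorbate (pAsc), a stable form of vitamin C, was given at 800 µM for the last 24 h of 14 days or the last 72 h of 17 days of culture. OP9-DL1 cells alone, labelled as osteoblasts of strain B6-C3Hf1, received the same dose for 24 h. All 6 samples shared this stromal line, the T cells as co-cultured stroma that a brief adherence step had depleted. Each array set untreated RNA (Cy3) against pAsc-treated RNA (Cy5), with 1 array per comparison, no replicate and no dye swap. No test was therefore possible, a gene-specific dye effect and treatment cannot be told apart, and genes were called by size alone, at 2-fold, among genes whose 2 channels both lay well above background (measured genes).

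Levels and ratios below are log2. Unless another setting is named, they follow background correction with an offset that shrinks ratios of dim probes and brightness-dependent (loess) normalization within each array. Folds, percents and summed levels are not log2, and a summed level adds the signals of several probes. A level is a log2 signal of 1 probe and was compared only with the same probe in another sample. Repeat spots of 1 probe had a log2 ratio SD of 0.0676 to 0.0707 per array. Different probes of 1 member gene had an SD of 0.204 on the stromal array (12 genes), 0.185 in T cells at 24 h (14 genes) and 0.204 at 72 h (15 genes). These spreads are technical and hold no variation between cultures. Among 14 stromal marker genes all were above background in OP9-DL1 cells. Of 10 T lineage markers 9 were above background in T cells of day 14 and 10 at day 17. Thy1 had no value at day 14, because outlier spots were left out, and stood at 14.94 in untreated cells of day 17. On stroma 1 of the 10 T lineage markers was above background in the untreated and 2 in the treated sample.

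Of the 80 probes, 41 on stroma were above background in both channels, with 48 for T cells after 24 h and 50 after 72 h. Taken by the brightest probe of each gene, 26 of 37 genes were measured on stroma, 25 for T cells after 24 h and 26 after 72 h. No probe of Itga10, Itgam, Itgb2l or Itgb8 was above background in any of the 6 channels. Itga2, Itgb6 and Lamc3 reached it in a single probe and channel, so for 30 genes a probe was above background in both channels of at least 1 array. Of 56 probes designed on RefSeq transcripts 35 were measured on stroma, 35 on the 24 h array and 39 on the 72 h array. Of 24 probes designed on other accessions the counts were 6, 13 and 11.

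Probe sequences show which form of a chain was read. They are those of the array design, written 5′ to 3′ in the sense of the gene, with positions on mm9 as the files give them. Annotation of exons and untranslated regions on mm9 was not used here. A pair of probes reads Itgae, at chr11:72959105-72960563 and chr11:72945236-72946221, and each spans more genome than its 60 bases and so joins exons. In the first the capitals mark the start of the short segment just inside the membrane that integrin alpha chains have in common. The third probe, at chr8:131250931-131255949, was designed on the beta1D form of Itgb1, a splice form known from striated muscle, and its capitals mark a stop codon in the first reading frame of the probe. The last pair reads Lama4, at chr10:38825032-38825822 and chr10:38825794-38825853, and the capitals mark the 29 bases that both hold, so that these 2 probes are not independent readings.
Itgae, first probe: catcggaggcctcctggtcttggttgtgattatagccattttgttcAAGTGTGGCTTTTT
Itgae, second probe: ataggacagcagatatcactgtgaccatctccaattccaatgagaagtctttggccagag
Itgb1, beta1D probe: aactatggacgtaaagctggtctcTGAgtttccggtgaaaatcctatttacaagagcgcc
Lama4, first probe: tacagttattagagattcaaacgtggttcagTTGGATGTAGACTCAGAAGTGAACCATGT
Lama4, second probe: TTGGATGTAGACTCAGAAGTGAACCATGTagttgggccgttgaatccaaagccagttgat

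The untreated samples show which chains were brighter in which RNA. Untreated T cell samples held stromal markers at a median of 16.8% of their stromal level at day 14 and 61.1% at day 17. A difference between samples therefore does not assign a chain to a cell type. Untreated stroma exceeded untreated T cells of day 14 by at least 2-fold in 11 of 21 members measured in both and was lower in 6. Over all genes these shares were 24.8% and 15.6%. Against T cells of day 17 the counts were 8 and 6 of 22, with 16.2% and 10.0% over all genes. Both comparisons use the same stromal sample. In bulk RNA, fewer cells of a type and less RNA per cell cannot be told apart.

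The T cell side held the integrins of leukocytes. Itgb7, the beta chain that pairs with Itgae and Itga4, had a log2 level of 6.79 in untreated stroma, 14.78 in T cells of day 14 and 14.73 at day 17. Itgae, whose product with beta7 binds E-cadherin, stood at 6.97, 13.50 and 13.31 in the same samples. Itgal, the alpha chain of the receptor for ICAMs, stood at 7.07, 13.31 and 13.11, and its partner Itgb2 at 7.33, 11.11 and 11.31. Stroma minus T cells ran over these 4 genes from log2 -7.99 to -3.79. Itga4, alpha chain of the receptors for Vcam1 and Madcam1, was not well above background in stroma, and T cells exceeded it at least 56.0-fold at day 14 and at least 32.8-fold at day 17. These bounds set the bright sample against the higher of the dim probe's own signal and the lowest signal above background. Itga9, which binds tenascin C and Vcam1, was likewise at least 3.59-fold and 3.92-fold higher in T cells, and Itgax at least 2.34-fold and 2.95-fold. The bounds for Itga4, Itga9 and Itgax all rest on the brightest probe. The other Itga4 probes showed a smaller excess, from 6.61 to 10.31 in untreated T cells of day 14 and from 6.40 to 8.65 at day 17. On untreated stroma they stood at 5.91 to 6.26, not above background. The dimmest of them in T cells, at 6.26 on stroma and 6.61 and 6.40 in T cells, fell short of 2-fold. A second Itgax probe showed no excess, at 6.75 in untreated stroma, not well above background, and 6.72 and 6.51 in T cells. A second Itga9 probe stood at 5.95, also not above background, and at 6.82 and 6.71 in T cells, short of 2-fold.

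Itga6, a laminin receptor chain, and Itgb3 were also brighter in T cells by their brightest probes. Stroma was lower by log2 -3.70 and -2.46 against day 14 and by -2.56 and -2.48 against day 17. A second Itgb3 probe stood at 8.95 in untreated stroma, 9.74 at day 14 and 9.14 at day 17, differences short of 2-fold. On the stromal side at both days stood Itga3, Itga5, Itga8, Lama4, Lama5, Lamb2 and Lamc1, which makes 4 of 10 laminin genes. Lama4 and Lamc1, chains that assemble with a beta chain into laminins of vessel walls and marrow, were higher in stroma by 2.95 and 1.97 against day 14 and by 1.26 and 1.02 against day 17. Itga8, a receptor chain for matrix proteins with an RGD sequence, exceeded T cells of day 14 at least 26.5-fold. The collagen receptor chains Itga1 and Itga11, with Itgav, Itgb1 and Itgb5, passed 2-fold against day 14 but not against day 17, where their differences were 0.38, 0.87, 0.30, 0.26 and 0.49. Itga7 passed only against day 17, at 1.04, with 0.47 against day 14.

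**Figure D1:**
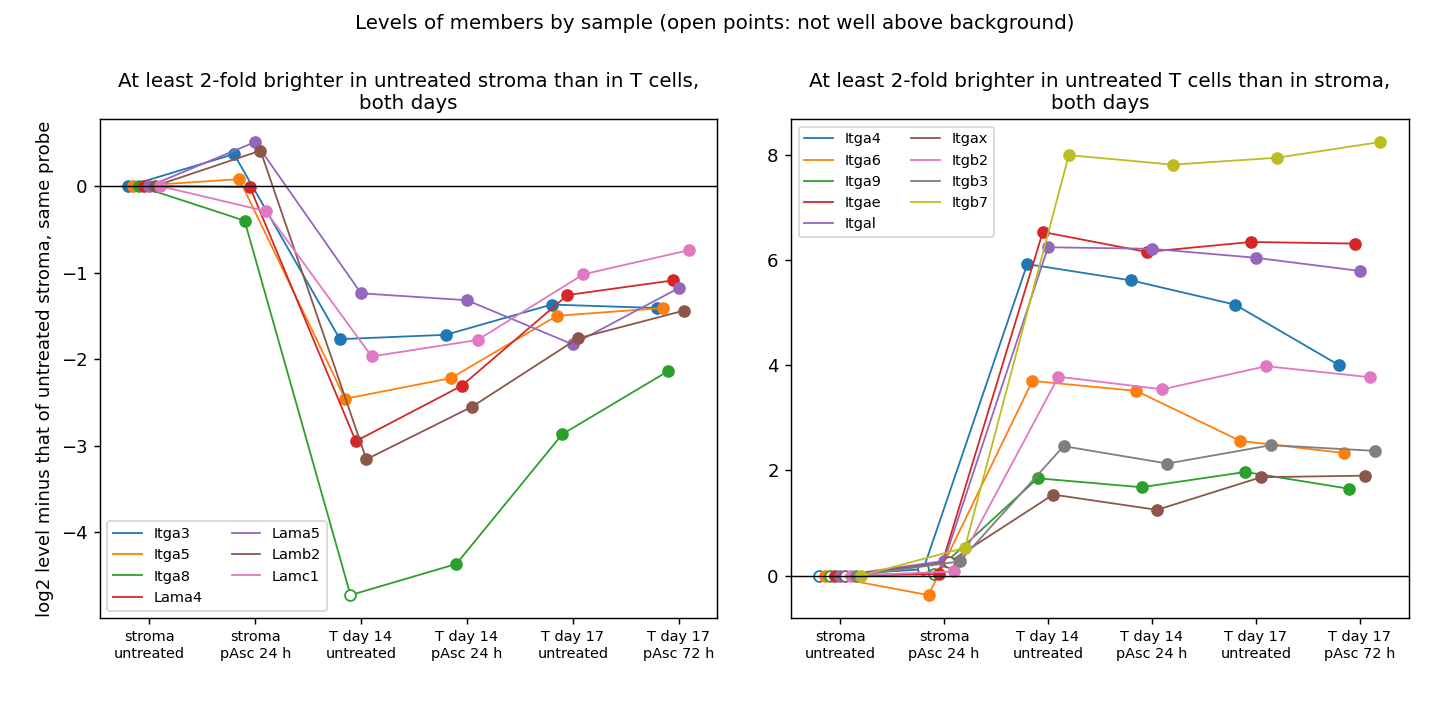
Log2 level of the brightest probe of each gene in 6 samples, minus its level in untreated stroma, for 7 members brighter in untreated stroma than in T cells of both days (left) and 9 brighter in T cells (right); lines join 1 probe, small sideways shifts only separate points, and open points are not well above background. The leukocyte chain Itgb7 stands highest in T cells, and Itga8 lowest in T cells of day 14. Sides were set by the brightest probe alone, and other probes of Itga3, Itga4, Itga6, Itga9, Itgax and Itgb3 fell short of 2-fold on 1 or both days.

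With pAsc, 1 member gene in 1 comparison passed 2-fold: Itga4, lower in treated T cells at 72 h. On the stromal array 0 of 26 members were higher and 0 lower, where 0.432% and 0.119% of all measured genes passed. In T cells at 24 h 0 of 25 were higher or lower, against 0.312% and 0.0118%. At 72 h 0 of 26 were higher, against 0.227%, and Itga4 alone was lower, against 0.381%. With shares this small, a count of 0 or 1 among 26 genes lies near the background. Dim members passed 2-fold in the Agilent log ratio, which has no offset, among them Itgb7 and Lama3 on the stromal array at 1.21 and 1.56.

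Integrin medians were near those of all genes and laminin medians were above them. The median log2 ratio of 18 measured integrin genes on stroma was 0.14, of 19 in T cells after 24 h -0.03 and of 20 after 72 h 0.05, where all genes had 0.02, 0.02 and 0.01. For 8, 6 and 6 measured laminin genes the medians were 0.27, 0.35 and 0.29. The stromal laminin median was 0.13 with Lamb1-1 added and 0.12 with centring on measured genes. Centring arrays on the median of all probes in place of loess moved the median of all genes to 0.649, 0.423 and 0.555, so signs hold on the loess scale. Under all settings tried 13 of 26, 15 of 25 and 16 of 26 members kept their sign, and without that centring 16, 21 and 20.

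**Figure D2:**
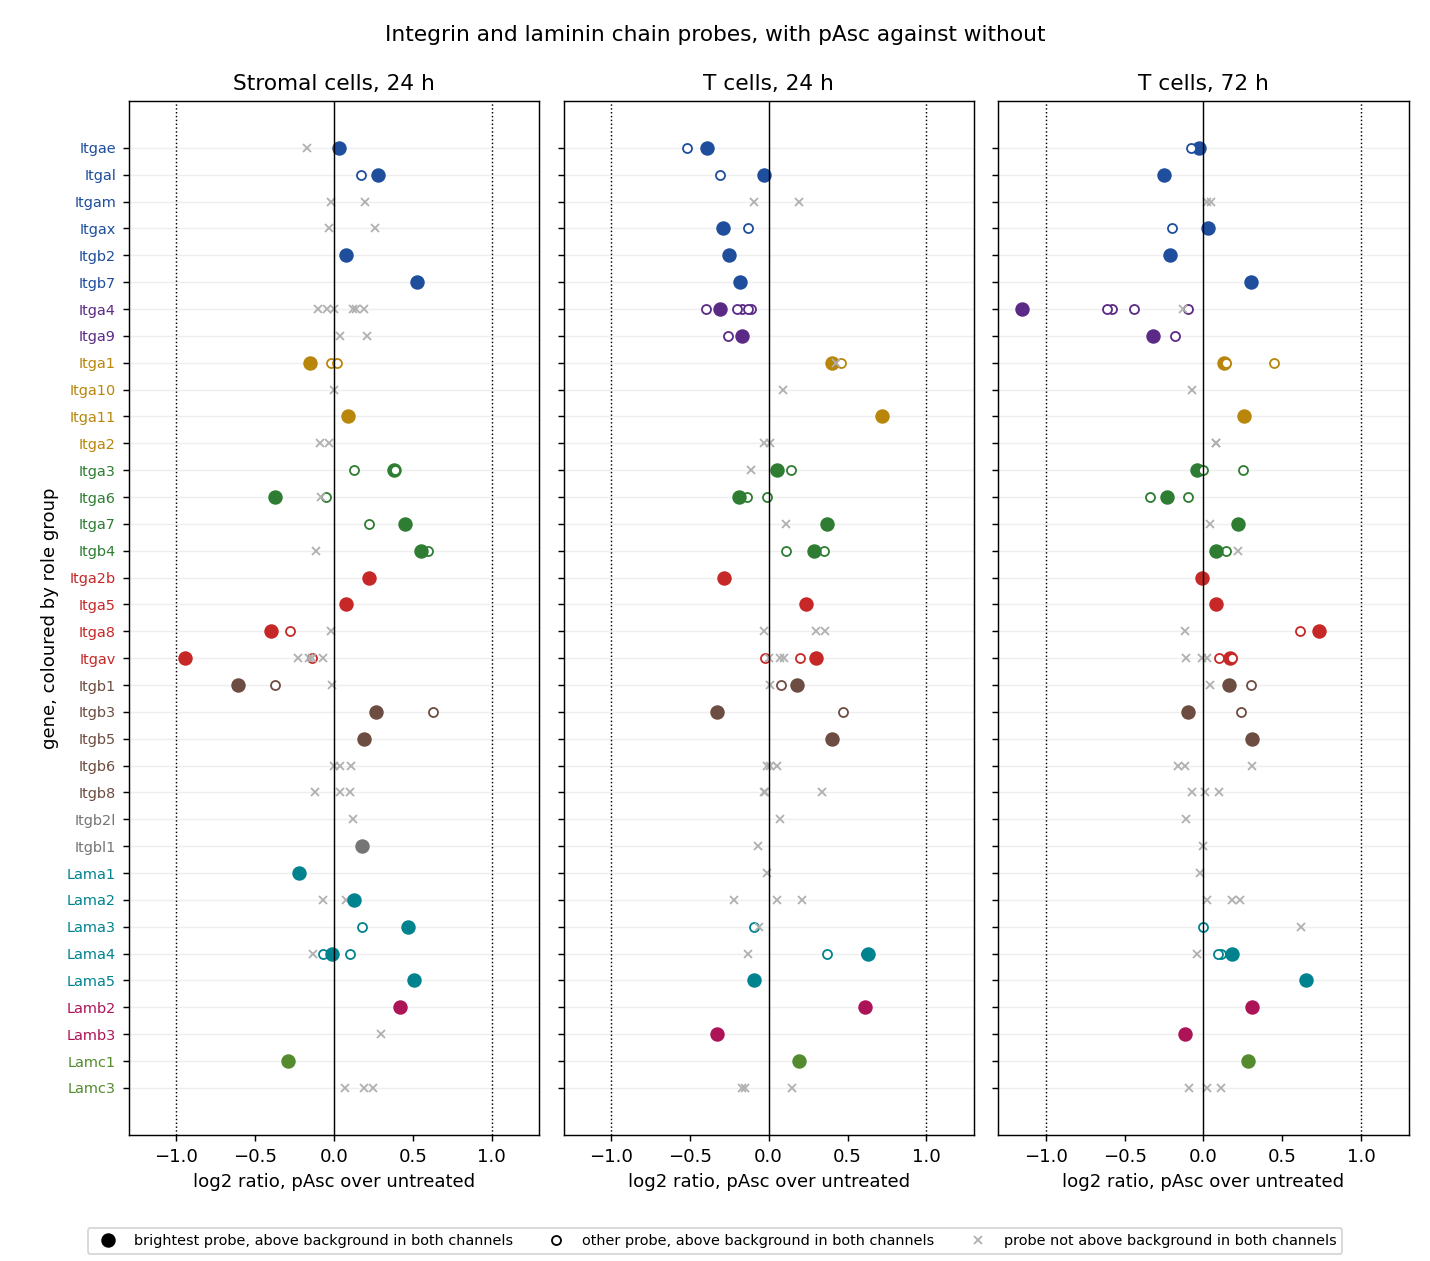
Log2 ratio of pAsc-treated over untreated RNA for the probes of the members reported here on the 3 arrays, by gene and coloured by role; filled points are the brightest probe of a gene, open points its other measured probes, crosses probes not above background in both channels, and dotted lines 2-fold. The brightest Itga4 probe at 72 h, at -1.15, is the only measured probe past 2-fold, and Itgav on stroma, at -0.94, comes nearest to it.

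Itga4 carried the only call. Its brightest probe, on chromosome 2 at 79170690 to 79170749 (mm9, plus strand), had a log2 level of 12.01 in untreated and 11.70 in treated T cells at 24 h. At 72 h the levels were 11.24 untreated and 10.09 treated. The treated sample was thus lower on both arrays, by a log2 ratio of -0.31 at 24 h and -1.15 at 72 h, which is 2.22-fold. On stroma the probe was not well above background, at 6.09 and 6.21.

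The other probes of Itga4 lay on the same side of 0 at smaller size. In the order of the gene, their log2 ratios at 72 h were -0.10, -0.13, -0.58, -0.44 and -0.61 before the -1.15 of the last. The second of them was not above background. In the Agilent log ratio, without the offset, the 6 were -0.60, -0.59, -0.74, -0.82, -0.80 and -1.17. All 6 were below 0 at 24 h as well, from -0.40 to -0.11. With the median over measured probes in place of the brightest, or with centring on all probes, Itga4 no longer passed 2-fold, and over all settings it lay between -1.20 and -0.47 at 72 h.

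Some marker genes of other blood cells also had lower values at 72 h. Of 5 genes of NK and cytotoxic cells, all above background, the summed level was 42019 untreated and 15190 treated. Most of this sum is Gzma, at log2 levels of 15.17 untreated and 13.56 treated. Of 5 mast cell genes, of which Mcpt4, Tpsab1 and Cma1 were not above background, the summed level was 9665 and 6875. Cpa3, a mast cell protease, was at -2.13, Ctsg, a myeloid granule protease, at -2.07 and Gzma, a granzyme, at -1.61. Of 5 measured myeloid genes 3 were above 0, with a median of 0.07, and the summed level was 1373 and 914. Of 5 measured B lineage genes 4 were below 0, with Vpreb1 at -1.57 and Blnk at -1.02, and the summed level was 5588 and 3804. The summed level of the 10 T lineage markers was 150452 and 129538. Kit, of the mast cell list, was at 0.51 and Prf1, of the cytotoxic list, at 0.13. Their part in the Itga4 value was not tested.

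**Figure D3:**
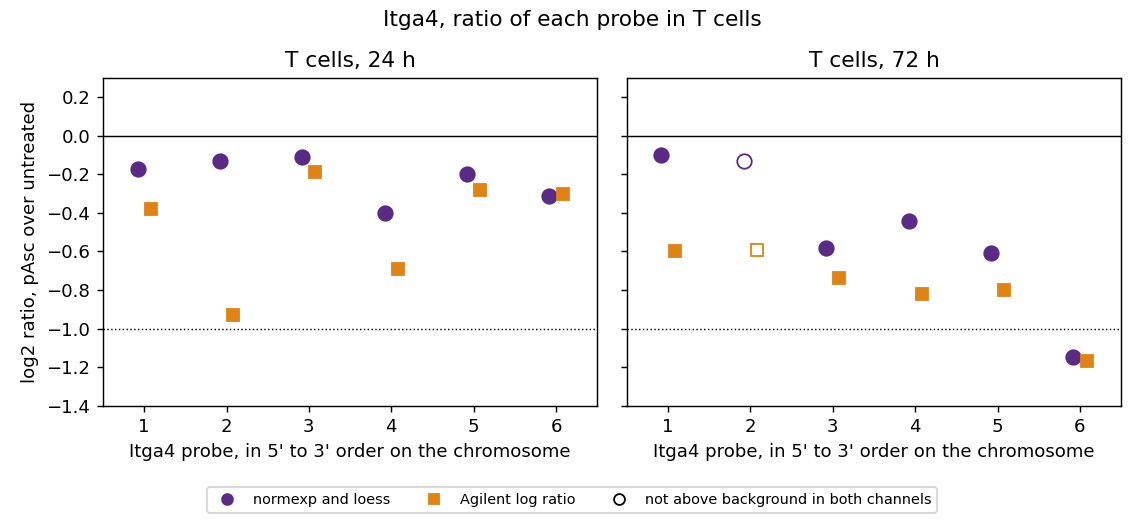
Log2 ratio of pAsc-treated over untreated T cells for the 6 Itga4 probes in their order on the chromosome, at 24 h (left) and 72 h (right); circles are normexp and loess values, squares the Agilent log ratio, open symbols probes not above background in both channels, and the dotted line 2-fold lower. All symbols lie below 0, and at 72 h the last probe stands lowest at -1.15 and -1.17.

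Itga9, the other alpha chain of this subfamily, was closer to 0 than Itga4 on both T cell arrays. Its log2 level was 8.22 untreated and 8.05 treated at 24 h, and 8.34 and 8.02 at 72 h. The ratios were -0.17 and -0.32, and its other probe gave -0.26 and -0.18. Both probes were below 0 on both T cell arrays, by values of the order of the spread between probes.

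No leukocyte integrin passed 2-fold, and 5 of 6 were measured in T cells. At 24 h these, Itgae, Itgal, Itgax, Itgb2 and Itgb7, had ratios from -0.39 to -0.03 with a median of -0.25, and 0 were above 0. The -0.03 of Itgal lies within the spread of repeat spots, and with centring on measured genes Itgal and Itgb7 were at 0.20 and 0.18. On the same array 0 of 5 NK and cytotoxic markers were above 0, with a median of -0.38. Their summed level, mostly Gzma, was 54991 untreated and 47120 treated. The part of these markers in the integrin values was not tested. Together with Itga4 and Itga9, 7 of 7 lay below the median of all genes, and 5 of 7 under either centring on a median in place of loess. At 72 h 2 of the 5 were above 0, with a median of -0.03. Itgae stood at 13.50 untreated and 13.12 treated at 24 h, and 13.31 and 13.28 at 72 h. Its 2 probes printed above gave -0.39 and -0.52 at 24 h, and -0.03 and -0.08 at 72 h, so they read the same pattern. Itgb7 stood at 14.78 and 14.60 at 24 h, and at 14.73 and 15.03 at 72 h, which is -0.18 and then 0.30. On stroma it was near the floor, at 6.79 and 7.32, and its 0.53 there turned negative with centring on measured genes. Itgal was at -0.03 at 24 h in its brightest probe and at -0.31 in its other, and at -0.25 in both at 72 h.

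Of 4 collagen-binding chains 2 were measured, none past 2-fold, and both had ratios above 0 in the T cell samples. Itga11 had log2 levels of 12.25 untreated and 12.97 treated at 24 h, and 13.74 and 14.01 at 72 h, a ratio of 0.72 and then 0.26. On stroma, where it was brightest, it stood at 14.61 and 14.71. Itga1 stood at 7.01 and 7.42 at 24 h, 8.50 and 8.63 at 72 h, and 8.88 and 8.74 on stroma. Its probes above background gave 0.40 and 0.46 at 24 h. At 72 h the brightest gave 0.13, which is below the spread between probes, and its other probes 0.45 and 0.14. By their brightest probes both genes are brightest in stroma, and the treated T cell sample lay above the untreated one at each time. A second Itga1 probe stood at 8.30 and 8.28 on stroma and at 8.42 in treated T cells at 72 h. Itga2 and Itga10 were not measured.

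Laminin-binding integrins split by gene. Itga6 was lower with pAsc on all 3 arrays, at 8.23 and 7.86 on stroma, 11.93 and 11.74 in T cells at 24 h, and 10.79 and 10.56 at 72 h. Its ratios of -0.37, -0.19 and -0.23 compare with -0.05, -0.01 and -0.34 in another probe, and one more probe read -0.14 and -0.10 on the T cell arrays, so the sign was shared and the size was not. Itgb4, the beta chain that pairs only with alpha6, was higher, at 9.57 and 10.12 on stroma, 10.34 and 10.63 at 24 h, and 9.58 and 9.66 at 72 h. Its 2 bright probes, which share 50 bases, gave 0.55 and 0.60 on stroma. Itga7 was at 0.45, 0.37 and 0.22 on the 3 arrays, and Itga3 at 0.38, 0.05 and -0.04.

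Among receptors for RGD sequences, Itgav and Itga8 differed between stroma and T cells. Itgav, which pairs with several beta chains and binds vitronectin and fibronectin, stood at 11.01 untreated and 10.07 treated on stroma. In T cells it stood at 9.99 and 10.30 at 24 h, and 10.71 and 10.88 at 72 h. The stromal ratio of -0.94 is 1.92-fold lower, just inside the 2-fold limit, while the T cell ratios were 0.30 and 0.17. A dimmer probe of Itgav gave -0.14 on stroma and 0.20 and 0.10 in T cells, the same signs at smaller size. One more probe, measured in T cells alone, gave -0.02 and 0.18 there. Itga8 stood at 11.08 and 10.68 on stroma, 6.35 and 6.71 at 24 h, and 8.21 and 8.94 at 72 h. Its ratios on stroma and at 72 h were -0.40 and 0.73, and -0.28 and 0.61 in its second probe; at 24 h the untreated sample was not well above background. Itga5, the fibronectin receptor chain, was at 0.08, 0.24 and 0.08, and Itga2b, the platelet chain, at 0.22, -0.28 and -0.01.

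Among beta chains, Itgb1 had the same signs as Itgav, and Itgb5 was above 0 on all 3 arrays. Itgb1, the most widely shared beta chain, stood at 12.25 and 11.64 on stroma, 11.24 and 11.42 at 24 h, and 11.99 and 12.15 at 72 h. Its probe was spotted 10 times, and the ratios over these spots were -0.61 ± 0.047, 0.18 ± 0.039 and 0.16 ± 0.047 (SD, technical). A second common probe gave -0.37, 0.08 and 0.30. The beta1D probe printed above was not above background in any channel, with levels from 6.09 to 6.34, unlike the other 2 probes. Itgb5, a partner of alphaV, stood at 15.19 and 15.38 on stroma, 13.16 and 13.56 at 24 h, and 14.71 and 15.02 at 72 h. Itgb3 had 2 probes of opposite sign in T cells: -0.33 and 0.47 at 24 h, and -0.10 and 0.24 at 72 h, against 0.27 and 0.63 on stroma. No direction can be given for it in T cells. Of the integrin-like genes, Itgbl1 was measured on stroma alone, at 7.07 and 7.25.

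Among laminin alpha chains, the genes with the highest ratio differed between arrays. Lama5, the broadly used alpha chain of marrow laminins, stood at 10.82 and 11.33 on stroma, 9.58 and 9.50 in T cells at 24 h, and 8.99 and 9.64 at 72 h, with ratios of 0.51, -0.09 and 0.65. Lama4 stood at 11.95 and 11.94 on stroma, 9.00 and 9.64 at 24 h, and 10.69 and 10.86 at 72 h. Its ratio of 0.63 at 24 h was 0.62 in the probe that overlaps it and 0.37 in a separate one. The brightest probes of Lama1, Lama2 and Lama3 were measured on stroma alone. Lama1 stood there at 6.95 and 6.73, Lama2 at 7.08 and 7.21, and Lama3 at 7.07 and 7.54, where a second Lama3 probe gave 0.18 beside 0.47 (and -0.09 and 0.00 in T cells).

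No laminin beta or gamma chain passed 2-fold, and their signs differed by gene. Lamb2 stood at 11.69 and 12.10 on stroma, 8.53 and 9.14 at 24 h, and 9.93 and 10.25 at 72 h, so the treated sample was higher on all 3 arrays. Lamb3, a chain of an epithelial laminin with Lama3, stood at 7.56 and 7.23 at 24 h and 7.10 and 6.98 at 72 h, and at 6.71 and 7.01 on stroma, where the untreated sample was not above background. Lamc1, the gamma chain of most laminins, stood at 13.08 and 12.79 on stroma, 11.11 and 11.30 at 24 h, and 12.06 and 12.34 at 72 h. Its sign on stroma turned with centring on measured genes. Lamc3 was not measured.

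Stromal marker genes were higher in treated T cell samples beside the members that are bright in stroma. The summed level of the 14 stromal markers was 111826 in untreated and 212341 in treated T cells at 24 h, and 294581 and 477815 at 72 h, against 496504 and 661618 in the stromal samples. Dcn was not above background in 3 of the 4 T cell samples, and Lum in untreated cells at 24 h. All 12 measured markers were above 0 at 24 h, with a median ratio of 0.85, and all 13 at 72 h, with 0.71. Of members at least 2-fold brighter in untreated stroma than in T cells of day 17, 6 of 7 were above 0 on the 24 h array, as were 82.9% of 2152 such genes overall. Of members classed by T cells of day 14, 10 of 11 were above 0 on the 72 h array, as were 70.0% of 3423 genes. Of members brighter in T cells, 0 of 6 were above 0 at 24 h and 1 of 6 at 72 h, against 38.6% of 1405 and 42.3% of 2152 genes. Each class was set from samples that are not on the array whose ratios were counted. The part of stromal RNA in the ratios of these members was not tested.

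Several members differed between the days of culture. Untreated cells of day 17 exceeded those of day 14 by at least 2-fold in 5 of 25 members, Itga1 (1.49), Itga11 (1.50), Itgb5 (1.55), Lama4 (1.68) and Lamb2 (1.41), against 7.68% of all genes. Itga6 was lower, at -1.13, against 3.66% of all genes. All 5 are among the 11 members at least 2-fold brighter in untreated stroma than in untreated T cells of day 14. Only Lama4 and Lamb2 are among the 7 members brighter in stroma than in T cells of both days. Both classes use the same untreated T cell samples as these differences, so neither count is independent of them. Of the other members of the 7, Itga5 and Lamc1 were higher at day 17 by 0.97 and 0.95, just short of 2-fold. Itga3 stood at 7.15, from 6.75, and Lama5 was lower at day 17 (8.99, from 9.58). Itga8, not well above background at day 14, was at least 3.62-fold higher at day 17. Treated cells gave 7 of 27 higher and 2 lower, against 6.83% and 5.38%. Here Itga8 (2.23) and Lamc1 (1.03) joined the same 5 genes, and Itga4 (-1.61) joined Itga6 (-1.18). The stromal markers had a median level of 16.8% of their stromal level in untreated T cells of day 14 and of 61.1% at day 17, and of 26.1% and 76.3% in treated samples. Their part in the day 17 values was not tested.

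Subtracting the ratios of 2 arrays removes a dye effect that a probe carries on both, and these differences mostly stayed below 1. The ratio at 72 h minus that at 24 h passed 1 in 0 of 25 members, from -0.84 for Itga4 to 0.74 for Lama5, against 0.191% of all genes higher and 0.362% lower. The stromal ratio minus that of T cells at 24 h passed it in 1 of 21 members, Itgav at -1.25, against 1.38% lower and 0.379% higher over all genes. Itgb1 followed at -0.79. With the median over probes or with centring on all probes no member passed.

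The proteins that act with integrins stayed below 2-fold. Of 27 activators and adhesion-site proteins 24 were measured on stroma, 27 on the 24 h array and 26 on the 72 h array, and 0 passed 2-fold on any array, with medians of 0.02, 0.08 and 0.06. Their extremes on stroma were Rap1a, a small GTPase that turns integrins on, at -0.96 and the talin Tln1 at 0.32. At 24 h they were the adaptor Pxn at -0.39 and the kindlin Fermt2 at 0.75, and at 72 h Pxn at -0.60 and the focal adhesion kinase Ptk2 at 0.45. Fermt3, the kindlin of blood cells, was at -0.35 and -0.52 in T cells and not measured on stroma.

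Several ligands passed 2-fold in T cells and none on stroma. Of 19 ligand and basement membrane genes, 15 were measured on stroma, with 0 past 2-fold, a median of -0.05 and a range from -0.48 to 0.37. In T cells at 24 h 3 of 16 were higher, namely Spp1 (osteopontin) at 1.28, the collagen chain Col4a1 at 1.08 and Nid2 (nidogen) at 1.03, with 0 lower and a median of 0.41, where 0.312% of all genes were higher. At 72 h 1 of 17 was higher, tenascin C (Tnc) at 1.01, with a median of 0.29, where 0.227% of all genes were higher. Whether this list differs from the activators was not tested. Spp1, Col4a1, Nid2 and Tnc were all at least 2-fold brighter in untreated stroma than in untreated T cells of day 14. Against untreated T cells of day 17 Col4a1, Nid2 and Tnc still were, at 1.91, 2.36 and 1.21, and Spp1 was not, at 0.35. Lamb1, the beta chain outside the spelling of the rule, was at -0.12, 0.67 and 0.27 on the 3 arrays, and Vcam1, a ligand of alpha4 integrins, at -0.22, 0.55 and -0.19. Of 5 other laminin receptors 0 passed 2-fold on any array, and the syndecan Sdc1 at 0.87 in T cells at 24 h came nearest.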

How the data were processed

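The authors ran Agilent Feature Extraction 10.5.1.1, and the file headers name its columns: each spot has an intensity per dye (its mean) and a local background (a median), neither normalized. The deposited log10 ratio of Cy5 over Cy3 holds that program's background subtraction, detrending and dye normalization, and served as an alternative, turned to log2. Flags for background and outliers came from the same deposited files. All 3 arrays lay on 1 slide with 1 scan time, per the file headers.

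With limma 3.58.1 in R 4.3.3, background was corrected by normexp with an offset of 50 and arrays normalized by loess with a span of 0.3, control and outlier spots having weight 0. From 117 to 130 spots per array were outliers and 0 saturated. Aquantile scaling came before any comparison of channels between arrays. Spots of a probe were averaged and a gene was read by its brightest probe. Measured means that a share of at least 0.5 of its spots was well above background in both channels. Python 3.11.15 with pandas 2.3.3 made the counts. Probe names came from RefSeq accessions, symbols or synonyms (assembly GRCm38, names only). Steps were checked on simulated arrays.

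The values of 1 member gene are not reported here; summary counts and medians include it. Members, lists and tests were chosen with earlier results of these data known. Levels are given for members past 2-fold, for the highest and lowest gene of each role group and, beyond that rule, for a few chosen after their values were seen: Itgal, Itgb2, Lama2, Lama3 and Lama4. Alternatives were the Agilent log ratio, an offset of 0, plain background subtraction, median centring on all probes or on measured genes, the median over probes, a filter on 1 channel, other members and another scaling between arrays. The number of arrays limits the precision.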

Additional observations from a re-analysis of the deposited data

Results flagged for a closer look

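Of 21 members measured on the stromal array and in T cells at 24 h, 12 had ratios of opposite sign, as had 12 of 22 against T cells at 72 h. The share over all genes was not counted, and several of these ratios lay within the spread of repeat spots. The counts alone therefore show no contrast between stroma and T cells. Each side is 1 array, and none of these differences was tested. In 3 cases the difference passed 1, all set against the same stromal array and with Itgav among them at both times. Against T cells at 24 h 1.38% of all genes were as far below, and against those at 72 h this share was not counted. Itgav was below 0 on stroma and above 0 in T cells, with a difference of the log2 ratios of -1.25 against T cells at 24 h and of -1.11 against those at 72 h. Itga8 was below 0 on stroma and above 0 in T cells at 72 h, with a difference of -1.13.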

How the results depend on the processing

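Counts of members past 2-fold and medians moved mainly with the normalization. Median centring on all probes raised the median of all genes too. With it 6 of 26 members passed 2-fold higher on stroma, 4 of 25 on the 24 h array of T cells and 6 of 26 on the 72 h array. There were 0 lower at 72 h and 0 past 1 between stroma and T cells at 24 h. Over all genes this centring put 2902 of 14343, 781 of 16966 and 1654 of 16277 higher, and 12 lower at 72 h. The integrin medians became 0.41, 0.51 and 0.63 and the laminin medians 0.77, 0.64 and 0.91. Centring on measured genes turned the integrin median on stroma to -0.24. The Agilent log ratio gave 3 members higher on stroma, 1 in T cells at 24 h and 3 past 1 between stroma and T cells at 24 h. An offset of 0 gave 1 higher on stroma, 2 past 1 in that difference, and 2 untreated and 4 treated members lower at day 17 than at day 14. Plain background subtraction gave 3 higher on stroma and 2 past 1 in that difference. The median over probes left 0 lower at 72 h, 0 past 1 in that difference and a laminin median of 0.19 at 24 h, the value also given by a filter on 1 channel. Adding Lamb1-1, chosen after seeing the data, gave 0.52 there and 0.13 on stroma, where centring on measured genes gave 0.12. Over all genes, 136 of 14343 were higher on stroma with the Agilent log ratio, 108 with an offset of 0 and 155 with plain background subtraction. In T cells at 24 h the Agilent log ratio put 147 of 16966 genes higher. The median over probes left 53 of 16305 genes lower at 72 h. For comparisons between arrays under other settings, shares over all genes are not given. The causes were not tested. Of 77 values of single genes, 15 stayed within the spread with centring on all probes and 30 with centring on measured genes. With the Agilent log ratio or plain background subtraction 59 did so, and 64 with an offset of 0 and 71 with the median over probes. The only called value, Itga4 at 72 h, kept its sign. Of all measured members, 13 of 26, 15 of 25 and 16 of 26 kept theirs on the 3 arrays under all settings. Leaving out Itgbl1 and Itgb2l took the stromal integrin median to 0.09. Scaling channels on the 75th percentile gave 10 members higher in stroma than in T cells of day 17, and in treated cells 5 higher and 3 lower at day 17 than at day 14. The filter on 1 channel was not applied to single genes, whose values it leaves as they are. No paired analysis was possible because no result comes from a test and each group is 1 array. Signal near background limits the dim members: ratios of probes near the floor are shrunk by the offset.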
